A study of Mus musculus with 16 samples.

Results

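Aminoacyl-tRNA synthetases join each amino acid to its tRNA, which is then carried to the ribosome by the elongation factor eEF1A. The cytosol and the mitochondria of a mammalian cell each have a set of these enzymes, and both sets are encoded in the nucleus. By convention the symbols of the mitochondrial enzymes end in 2. Several cytosolic synthetases are held together in the multi-synthetase complex with the scaffold proteins AIMP1, AIMP2 and EEF1E1 (AIMP3), and valyl-tRNA synthetase (VARS) binds the EEF1B complex, of which EEF1D is a subunit. Many cytosolic synthetase genes are known targets of ATF4, the transcription factor of the amino acid response. The mitochondrial enzymes supply the organelle's own ribosomes, which make a few subunits of the respiratory chain.

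The synthetases were chosen by gene symbol, and 34 of the 22392 genes in the count table are described, 18 cytosolic and 16 mitochondrial. Of the cytosolic enzymes, 7 are members of the multi-synthetase complex (Dars, Eprs, Iars, Kars, Lars, Qars and Rars) and 11 act outside it. Gars and Kars were counted as cytosolic, although the products of both genes serve both compartments. Each gene was read at its transcript with the largest sum of counts over all 16 libraries. All 34 passed the filter on low counts in every comparison of RNA, ribosome footprints and translation efficiency (TE).

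Ribo-seq and RNA-seq counts came from WT Hepa1-6 cells, a mouse hepatoma line, and from 3 lines (KO1, KO2 and KO3; clones #1, #2 and #3) in which exon 5 of Eef1d had been deleted with CRISPR/Cas9. The plasmids pS1 and pS4 were used for clones #1 and #2, and pS2 and pS4 for clone #3. Each KO line is 1 single-cell clone, every line has 2 replicates in each assay, and all 3 clones are compared with the same 2 WT replicates. The labels name polyA RNA for RNA-seq whereas the protocol describes rRNA depletion, and nothing in the labels says that replicates were separate cultures, so the p-values below measure only the spread between these libraries.

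With 1 transcript per gene, RNA-seq libraries held 10493030 to 12946819 counts and Ribo-seq libraries 1138943 to 4886753, the lowest and the highest Ribo-seq totals being those of KO1 replicates 2 and 1. Between the replicates of a line, Pearson's r of log2 (CPM + 1) across genes was 0.9947 to 0.9956 for RNA and lay between 0.981 and 0.991 for footprints. The Eef1d transcript with exon 5 had 113% to 116% of the counts of the transcript without it in the 4 WT libraries, and 89.8% to 98.9% in the 12 libraries of the clones, so that every KO library lay below every WT library. These are counts over whole transcripts, in which reads on shared exons count for both, and they give no level of exon 5 itself. Of 8 hepatocyte markers, 5 had a mean RNA level above 10 CPM, and Apoa1 and Ttr were under 1 CPM. The summed CPM of these markers was 2260 and 2431 in WT cells and ran from 901 (KO1) to 3586 (KO3). In KO3 the sum was carried by Alb, at 784 and 743 CPM in WT cells and 1760 and 1883 in KO3, and by Afp, while Trf, Apob and Fgb were lower there than in both WT libraries. Summed fibroblast markers were between 5.62 and 10.6 CPM, leukocyte markers between 2.54 and 6.37 CPM and endothelial markers between 0.0793 and 2.27 CPM. Bile duct markers summed to 73.8 to 134 CPM, most of it Sox9. The part that differences in cell state or in the number of cells of a type play in the results below was not tested, and in bulk libraries fewer cells of a type and less RNA per cell cannot be told apart.

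In WT cells the cytosolic synthetases were expressed at a higher level than the mitochondrial enzymes. Per 1000 codons of counted coding sequence, the median RNA level was 313 CPM for the cytosolic and 30.7 CPM for the mitochondrial genes, against 78.5 CPM over the 10542 genes kept in both assays. Footprints gave medians of 306 and 32.2 CPM per 1000 codons, against 61.2 CPM for all genes. Gars (glycyl-tRNA synthetase) had the highest RNA level of the cytosolic set, with 881 and 852 CPM per 1000 codons in the WT replicates, and Yars (tyrosyl-tRNA synthetase) the lowest, with 130 and 124. Among the mitochondrial enzymes, Iars2 (isoleucyl) was highest, with 124 and 131 CPM per 1000 codons, which overlaps the values of Yars. Nars2 (asparaginyl) was lowest, with 18.9 and 15.3, and its replicates overlap those of Pars2 (prolyl, 15.6 and 18.8) and Fars2 (phenylalanyl, 20.4 and 15.4).

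For 11 amino acids both the cytosolic and the mitochondrial enzyme were among the members, and in each of these pairs the cytosolic gene had the higher RNA level per codon. The ratio of the WT RNA levels had a median of 6.40. It was lowest for Iars and Iars2, with a mean of 1.59, and for Yars and Yars2, with 1.53 and 1.75 in the replicates. The ratio was highest for Nars and Nars2, with 41.5 and 50.4. The median ratio of footprint levels was 9.09, from 1.36 (Yars and Yars2) to 29.0 (Nars and Nars2).

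**Figure D1:**
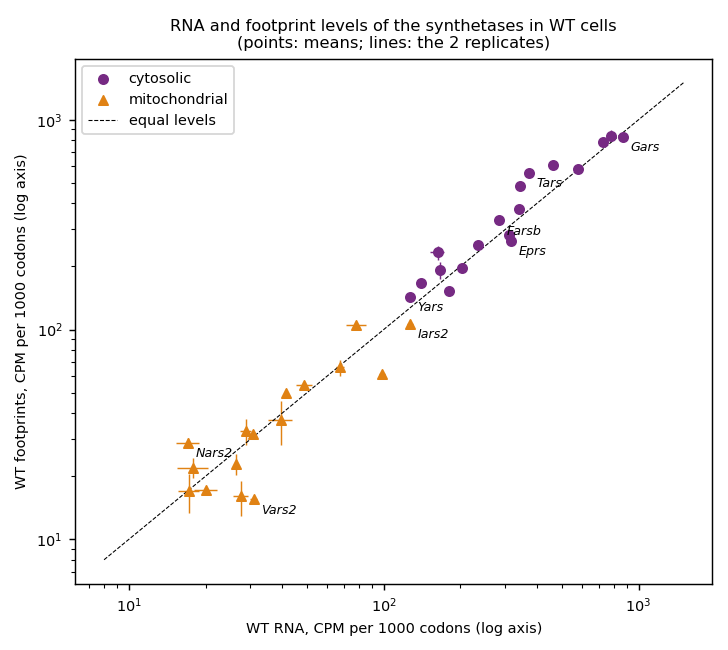
RNA level (x axis) and footprint level (y axis) of the 34 synthetases in WT cells, both in CPM per 1000 codons on log axes, with the mean as a point and the 2 replicates as the ends of the lines. Cytosolic genes (circles) lie between 127 and 867 CPM per 1000 codons of RNA and mitochondrial genes (triangles) between 17.1 and 127, and Vars2 lies below the dashed line of equal levels while Nars2 and Tars lie above it.

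TE, given as log2 of footprint CPM over RNA CPM, had a WT median of 0.13 for the cytosolic genes, -0.04 for the mitochondrial genes and -0.17 for all genes kept in both assays. It was above the median of all genes for 16 of 18 cytosolic and 10 of 16 mitochondrial members. Among cytosolic members, Tars (threonyl) had the highest WT TE, 0.59 in both replicates, and Eprs, the bifunctional glutamyl-prolyl enzyme, the lowest, -0.27 and -0.24, which overlaps Qars (-0.23 and -0.26). The mitochondrial members spanned more. Nars2 was at 0.69 and 0.84, and Vars2 (valyl) was at -1.02 and -0.96. Counts behind these values differ between the sets: the median WT count was 2762 in RNA-seq and 780 in Ribo-seq for cytosolic genes, and 254.5 and 55 for mitochondrial genes.

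The deletion of exon 5 was compared with WT cells clone by clone, first for RNA. In KO1, the RNA of 11 of 18 cytosolic synthetases fell and that of 2 rose, and of the 16 mitochondrial enzymes 4 fell and 1 rose (adjusted p under 0.05, edgeR's quasi-likelihood test). Over all 11515 genes tested in KO1, 24.6% were called lower and 22.1% higher. The median log2 change was -0.20 for the cytosolic genes, 0.002 for the mitochondrial genes and 0.003 for all genes. The median SE was 0.0571, 0.135 and 0.108 in the same order, so a change of a given size is called more readily in the cytosolic set. Call counts of the 2 sets, here and in the comparisons below, therefore differ in precision from each other and from the share over all genes. Outside the multi-synthetase complex 8 of 11 cytosolic members fell and 1 rose, and within it 3 of 7 fell and 1 rose.

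Cars (cysteinyl-tRNA synthetase) changed most. Its RNA was at 285 and 273 CPM in WT cells. In KO1 it was at 75.3 and 81.2 CPM, whereas KO2 had 311 and 301 CPM and KO3 had 295 and 294 CPM. The KO1 libraries lay far below the rest, with a log2 change of -1.84 (SE 0.0624, edgeR adjusted p = 2.86e-31). The changes of 0.13 (KO2) and 0.08 (KO3) did not pass the test, with edgeR adjusted p-values of 0.0929 and 0.263.

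Wars (tryptophanyl) fell next. Its RNA was at 80.7 and 70.9 CPM in WT cells and at 43.8 and 44.9 CPM in KO1, a log2 change of -0.77 (SE 0.085, edgeR adjusted p = 4.86e-11). The mitochondrial seryl enzyme Sars2 was at 13.9 and 15.4 CPM in WT cells and at 12.0 and 7.42 in KO1, a log2 change of -0.59 (SE 0.179, edgeR adjusted p = 0.00527). The call of Sars2 was lost by DESeq2, without WT replicate 2 and without KO1 replicate 2, which was the lower of the pair. The rises in KO1 were smaller. Rars2 (mitochondrial arginyl) went from 23.8 and 23.2 to 29.2 and 27.7 CPM (log2 change 0.27, SE 0.116, edgeR adjusted p = 0.0474). Farsa, the alpha subunit of phenylalanyl-tRNA synthetase, went from 81.8 and 84.0 to 97.5 and 99.7 CPM (0.25, SE 0.0711, edgeR adjusted p = 0.00319). Eprs rose by 0.12 (SE 0.046, edgeR adjusted p = 0.0329). The calls of Rars2 and Eprs were lost under 8 and 5 of the 12 alternative settings, and that of Farsa without WT replicate 1.

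In KO2, 9 of 18 cytosolic synthetases rose and 0 fell, and 2 of 16 mitochondrial enzymes rose and 0 fell. Counted without a test, 15 of the 18 cytosolic changes were above 0. Over the 11476 genes tested, 11.6% were called higher and 8.84% lower. The median change was 0.17 for the cytosolic and 0.08 for the mitochondrial genes. Aars (alanyl) was at 226 and 225 CPM in WT cells and at 296 and 285 in KO2 (log2 change 0.37, SE 0.0566, edgeR adjusted p = 4.54e-05). Dars (aspartyl) went from 171 and 165 to 222 and 208 CPM (0.36, SE 0.0618, edgeR adjusted p = 0.00017), and Iars2 from 124 and 131 to 161 and 164 CPM (0.35, SE 0.0646, edgeR adjusted p = 0.000328). Both KO2 libraries were above both WT libraries for these 3 genes. The count of 11 synthetases called in KO2 fell to 6 without WT replicate 2.

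In KO3, 12 of 18 cytosolic synthetases rose and 0 fell, and all 18 changes were above 0. Of the mitochondrial enzymes 4 rose (Cars2, Ears2, Pars2 and Vars2) and 2 fell (Iars2 and Mars2). Of the 11434 genes tested in this clone, 23.1% were called higher and 22.3% lower. Median changes were 0.20 for the cytosolic and 0.14 for the mitochondrial genes. Wars was at 112 and 110 CPM in KO3, against 80.7 and 70.9 in WT cells (log2 change 0.55, SE 0.074, edgeR adjusted p = 8.99e-10). Yars went from 72.1 and 69.0 to 101 and 102 CPM (0.52, SE 0.0748, edgeR adjusted p = 7.57e-09), and Cars2, the mitochondrial cysteinyl enzyme, from a mean of 15.0 (SD 1.45, n = 2) to 21.3 and 21.8 CPM (0.53, SE 0.14, edgeR adjusted p = 0.00118). Mars2 (mitochondrial methionyl) fell, from 37.7 and 40.4 to 32.4 and 29.1 CPM (-0.35, SE 0.103, edgeR adjusted p = 0.00375), and so did Iars2, which had risen in KO2, from 124 and 131 to 108 and 116 CPM (-0.19, SE 0.0676, edgeR adjusted p = 0.0161). The RNA call of Mars2 was lost without WT replicate 2 and without KO3 replicate 2, with changes of -0.42 to -0.27 over the settings. The call of Cars2 was lost without WT replicate 2, and without that library 11 synthetases were called in KO3 in place of 18.

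**Figure D2:**
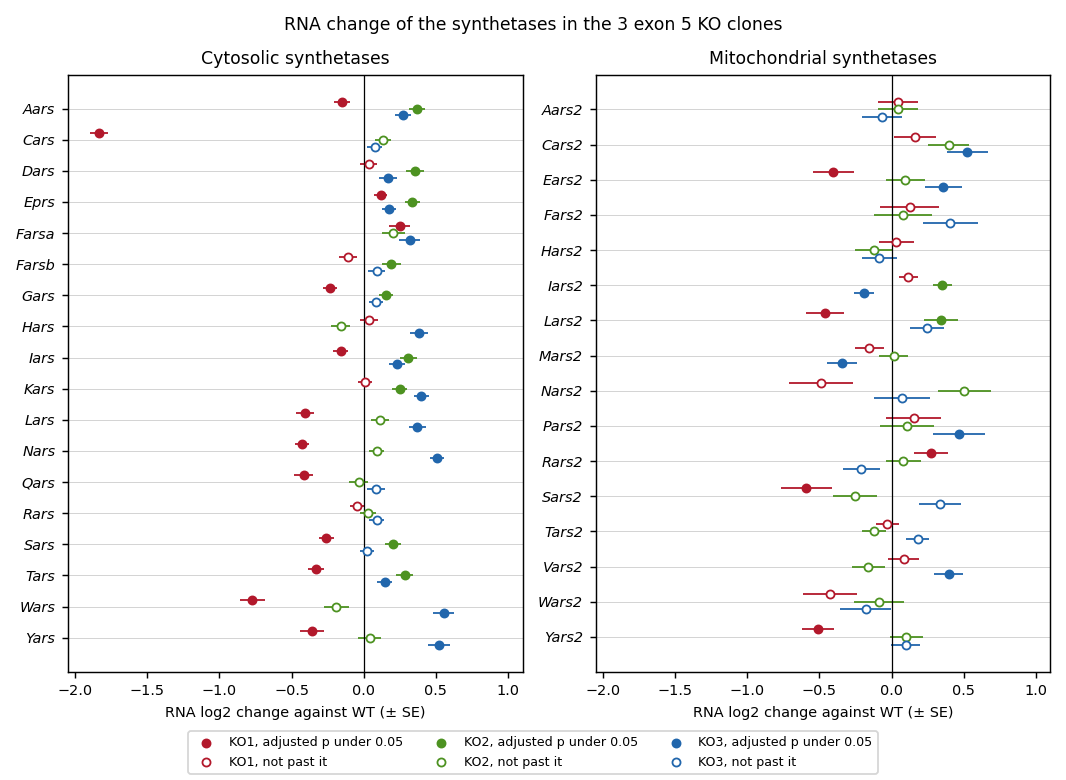
RNA log2 change of each synthetase against WT cells (x axis, with its standard error as a bar) in KO1 (red), KO2 (green) and KO3 (blue), cytosolic genes on the left and mitochondrial genes on the right; filled points passed an adjusted p under 0.05 in edgeR. Most filled red points of the cytosolic panel lie left of 0, down to -1.84 for Cars, and all filled green and blue ones lie right of 0.

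The changes were also compared between the clones. The test that the 3 RNA changes of a gene are equal, in a model of the 8 RNA-seq libraries, called 27 of 34 synthetases, 16 cytosolic and 11 mitochondrial, where 74.0% of the 11755 genes tested were called. The cytosolic genes that did not pass it were Farsa and Rars. Of the cytosolic members, 9 were called lower in KO1 and higher in KO2, in KO3 or in both: Aars, Gars, Iars, Lars, Nars, Sars, Tars, Wars and Yars. Among the mitochondrial genes, Ears2 (glutamyl) was lower in KO1 and higher in KO3, Lars2 (leucyl) was lower in KO1 and higher in KO2, and Iars2 was higher in KO2 and lower in KO3. These are 12 of 34 synthetases, where 20.1% of the 11281 genes tested in every clone had opposite calls. Calls in both directions held under all 12 alternative settings for Lars, Nars, Wars and Yars. Aars and Iars lost the KO1 call in some settings, Iars in 1 also the KO3 call, Gars and Sars the KO2 call, and Tars the KO2 and KO3 calls. The KO1 call of Ears2 was lost in 3 settings and its KO3 call in 2, the KO2 call of Lars2 in 5 and the KO3 call of Iars2 in 3.

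In all 3 clones, 4 cytosolic genes and 0 mitochondrial genes were called for RNA, where 7.92% of the 11281 genes were. Tars was at 274 and 257 CPM in WT cells and at 215 and 207 CPM in KO1, but at 340 and 305 CPM in KO2 and 298 and 290 CPM in KO3, so that KO1 lay below WT cells and the other clones above them. Its log2 changes were -0.33 (SE 0.0547), 0.28 (SE 0.0613) and 0.14 (SE 0.0547), with edgeR adjusted p-values of 1.28e-06, 0.00166 and 0.0244. Aars, at 202 and 204 CPM in KO1 and 274 and 273 CPM in KO3, had changes of -0.15, 0.37 and 0.27. Iars was at 262 and 245 CPM in WT cells, 227 in both KO1 libraries, 315 and 313 in KO2 and 296 and 300.2 in KO3, with changes of -0.16, 0.31 and 0.23. Eprs was the exception and was higher in all 3 clones. It went from 469 and 481 CPM in WT cells to 503 and 527 CPM (KO1), 605 and 591 CPM (KO2) and 532 and 540 CPM (KO3). Its changes were 0.12, 0.34 and 0.17, with edgeR adjusted p-values of 0.0329, 3.02e-05 and 0.0019. The KO1 calls of Aars, Iars and Eprs, at 0.12 to 0.16 on the log2 scale in size, were each lost without WT replicate 1, as were the calls of Tars in KO2 and KO3 without WT replicate 2.

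Averaged over the 3 clones, the RNA change was called for 7 of 34 synthetases, where 18.9% of the 11755 genes were called. Aars, Dars, Eprs, Farsa, Kars (lysyl) and Cars2 were higher on average, by 0.16 to 0.36, and Cars was lower (-0.54, SE 0.0473, edgeR adjusted p = 2.85e-11), although only its KO1 change had passed the test. Without WT replicate 1 the mean was called for 3 members.

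**Figure D3:**
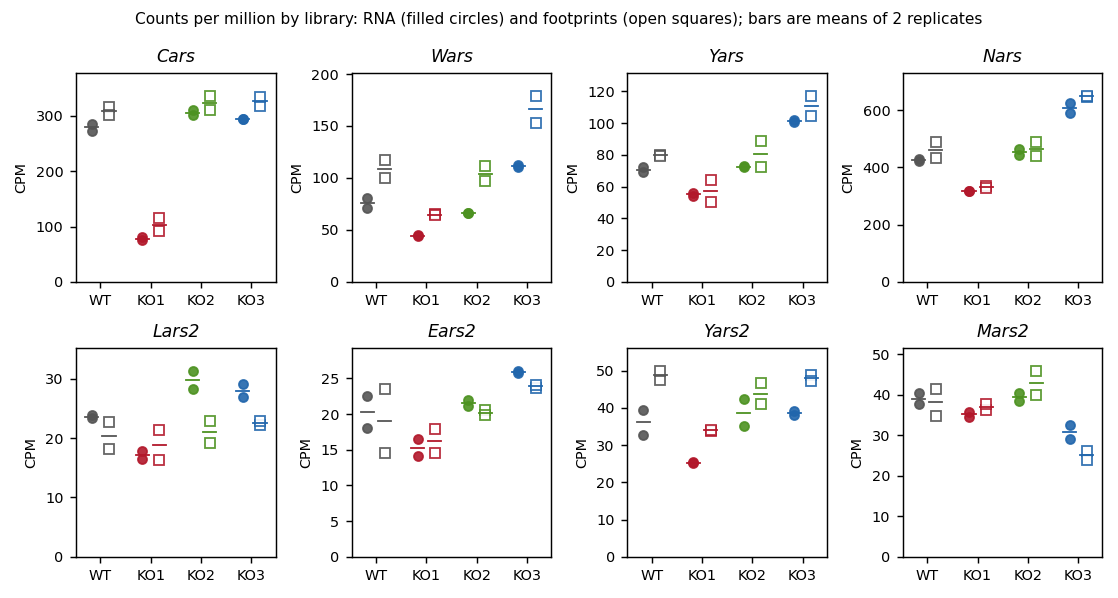
CPM (y axis, from 0) of 8 synthetases in each library of WT cells and the 3 clones, RNA-seq as filled circles and Ribo-seq as open squares, with bars at the means of 2 replicates. Cars is low in KO1 alone, at 75.3 and 81.2 CPM of RNA, while Wars, Yars and Nars are lowest in KO1 and highest in KO3 in both assays.

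Many of these calls lay on chromosomes whose other genes moved the same way. The median RNA change of the tested genes was computed for each of the 20 chromosomes, a comparison chosen after the values had been seen. In KO1 it was -0.44 on chromosome 7, -0.36 on chromosome 9 and -0.33 on chromosome 16, and 65.0%, 58.1% and 59.0% of the tested genes there were called lower. It lay between -0.19 and 0.15 on the other 17 chromosomes. Of the 7 synthetases on chromosomes 7, 9 and 16, 6 were called lower in KO1: Cars, Ears2 and Sars2 on chromosome 7, Qars (glutaminyl) and Lars2 on chromosome 9, and Yars2 on chromosome 16. These include all 4 mitochondrial enzymes that fell in KO1. The seventh, Nars2 on chromosome 7, had a change of -0.49 that did not pass the test. The 9 other genes that fell in KO1 were all cytosolic and were those with opposite calls in another clone. They lie on chromosomes with medians from -0.19 to 0.15. The lowest of these is chromosome 15, which holds Tars and where 46.3% of the tested genes were called lower. Chromosomes were set apart where the median passed 0.2 in size.

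In KO2 the median was 0.28 on chromosome 1 and 0.26 on chromosome 8, where 46.6% and 45.3% of the genes tested were called higher. Of the 11 synthetases that rose in KO2, 6 lie there (Aars, Dars, Eprs, Farsb, Kars and Iars2) and 5 do not (Gars, Iars, Sars, Tars and Lars2). Of the 9 members on these chromosomes, Farsa, Cars2 and Mars2 were not called. The median was -0.26 on chromosome 10, which holds 0 members, and -0.20 on chromosome 12, where Wars had a change of -0.19 that did not pass the test. In KO3 it was 0.33 on chromosome 12, 0.32 on chromosome 18, 0.22 on chromosome 8 and -0.33 on chromosome 6. Of the 16 members that rose in KO3, 8 lie on chromosomes 8, 12 and 18 (Aars, Farsa, Kars, Cars2, Wars, Hars, Lars and Nars) and 8 do not (Dars, Eprs, Iars, Tars, Yars, Ears2, Pars2 and Vars2). The other member on chromosomes 8, 12 and 18 is Hars2, on chromosome 18, whose change of -0.08 in KO3 did not pass the test. Gars, the member on chromosome 6, had a change of 0.09 in KO3 that did not pass the test.

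The change of each synthetase was then set against that of its chromosome. The median difference between a cytosolic member and the median of its chromosome came to -0.16 in KO1, with 14 of 18 below 0, to 0.07 in KO2, with 13 above 0, and to 0.18 in KO3, with 18 above 0. For the mitochondrial members it was -0.05, 0.08 and 0.14. In KO1 the difference was -1.39 for Cars, -0.66 for Wars and -0.48 for Yars, but -0.06 for Qars, -0.15 for Sars2 and 0.04 for Ears2. The part of the chromosomes in these calls was not tested, and DNA copy number was not analysed here.

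**Figure D4:**
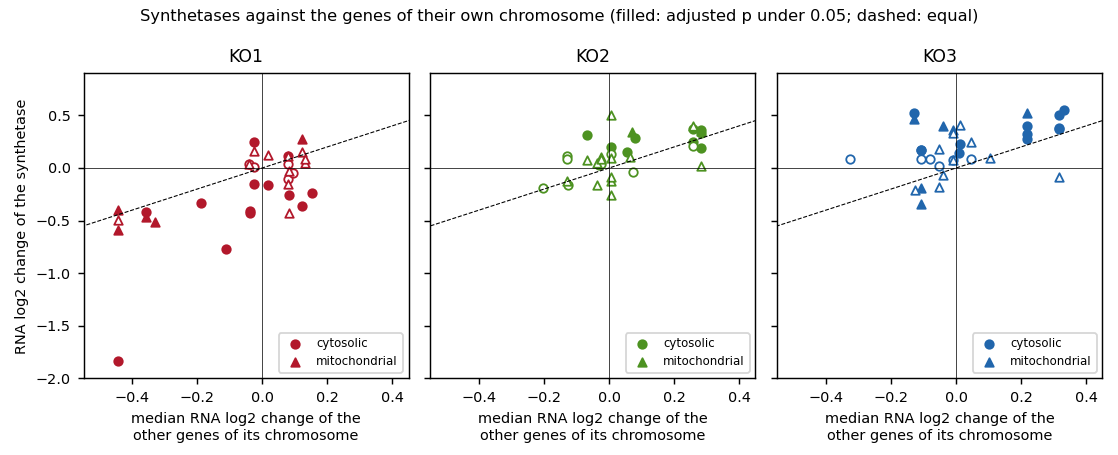
RNA log2 change of each synthetase (y axis) against the median RNA log2 change of the other tested genes of its chromosome (x axis) in KO1, KO2 and KO3; circles are cytosolic, triangles mitochondrial, filled points passed an adjusted p under 0.05, and the dashed line marks equal values. In KO1 the 7 synthetases with chromosome medians under -0.3 all lie below 0, and in KO3 all 18 circles lie above the line.

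Near Cars (chromosome 7, from 143557230 to 143600090 in GRCm38) the shift in KO1 was larger than over the chromosome. Of its 8 nearest tested genes, 4 on each side, 7 were called lower in KO1, with a median of -0.75. Tnfrsf22 and Tnfrsf26, receptors of the TNF family, had changes of -2.35 and -1.87, Igf2, the imprinted growth factor gene, of -2.47, and Nap1l4, a histone chaperone gene, of -0.59. In KO2, Igf2 was higher (2.76, edgeR adjusted p = 2.94e-10), and Tnfrsf22 (-0.04) and Nap1l4 (-0.05) were not called. Of the 8 nearest tested genes, 1 was called lower and 1 higher in KO2, and 1 lower and 1 higher in KO3. The lower ones were Cd81 in KO2 (-0.21) and Osbpl5 in KO3 (-0.45), which had changes of -0.26 and -0.90 in KO1. The higher one in KO3 was Trpm5 (1.48). In KO2 and KO3, Cars itself was not called.

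A list of 20 genes, Atf4 and its known targets in amino acid synthesis, transport and stress signalling, was set beside the synthetases. In KO1, 17 of the 20 fell and 0 rose, with a median change of -0.67, where 24.6% of all genes were called lower and 22.1% higher. In KO2, 6 rose and 4 fell (median 0.08), beside 11.6% and 8.84% of all genes, and in KO3, 13 rose and 1 fell (median 0.28), beside 23.1% and 22.3%. The test of equal changes called all 20, and 74.0% of all genes. Atf4 RNA was at 448 and 406 CPM in WT cells and at 225 and 216 CPM in KO1, while KO2 had 563 and 476 CPM and KO3 had 503 and 493 CPM. Both KO1 libraries lay below both WT libraries, and the 4 libraries of the other clones lay above them. The log2 changes were -0.95 (KO1, SE 0.0526), 0.28 (KO2, SE 0.0659) and 0.22 (KO3, SE 0.0499), with edgeR adjusted p-values of 4.36e-22, 0.00298 and 0.00015.

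Besides Atf4, 4 genes of the list were called in all 3 clones. Phgdh, the first enzyme of serine synthesis, had changes of -1.03, -0.31 and 0.39 in KO1, KO2 and KO3. Aldh18a1, which starts proline synthesis, had -0.86, 0.45 and 0.26, and the stress sensor gene Sesn2 had -0.57, -0.60 and 0.65. Nupr1, a stress-induced chromatin protein gene, went the other way in KO3, with -1.33, 1.43 and -2.01. The clones do not share a direction in this list.

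Promoters were searched for TGATGNAA, the core of the C/EBP-ATF response element to which ATF4 is known to bind, in either orientation, in the 300 bases from 250 before to 50 after each start site in the RefSeq promoter table (GRCm38.p6), which holds 32851 promoters of 27025 genes. Of the synthetases, 26 had a promoter in the table, 12 cytosolic and 14 mitochondrial. The core TGATGNAA was found in 5 of the 12 cytosolic promoters (41.7%) and in 0 of the 14 mitochondrial ones, against 4.51% of all genes in the table. In the ATF4 list it was found in 7 of 18 genes (38.9%). A window of 30 bases is shown for each of the 5 synthetases because all are among the cytosolic members that fell in KO1, with the core in capitals and each written 5′ to 3′ on the strand of its gene:
Aars (chr8:111033840-111033869, plus strand): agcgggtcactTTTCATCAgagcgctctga
Gars (chr6:55037960-55037989, plus strand): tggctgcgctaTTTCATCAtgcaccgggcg
Iars (chr13:49682126-49682155, plus strand): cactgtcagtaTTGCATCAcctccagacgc
Tars (chr15:11399655-11399684, minus strand): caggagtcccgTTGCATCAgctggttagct
Yars (chr4:129189895-129189924, plus strand): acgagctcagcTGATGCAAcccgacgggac

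For Aars, Gars, Iars and Tars the capitals read as the reverse complement of the core, and for Yars as the core itself. Counted from the start site in that table, which for Aars and Yars lies within the gene as RefSeq bounds it, the cores shown begin at 9 for Aars, -30 for Gars, 7 for Iars, -15 for Tars and 3 for Yars. All 5 genes were called lower in KO1, and so were 2 of the 7 cytosolic genes without a core in the window (Qars and Sars). The others without a core were Dars, Eprs, Farsa, Farsb and Kars, none of them called lower in KO1. Of the 14 mitochondrial genes without a core 4 were called lower in KO1. In the ATF4 list 6 of 7 genes with a core and 10 of 11 without were called lower. Over all genes tested in KO1, 24.6% were called lower. The KO1 calls of Aars and Iars were lost in 4 and 2 of 12 settings. The search describes matching letters and not binding. It leaves out 6 cytosolic genes, Cars and Wars among them, that had no promoter in the table.

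**Figure D5:**
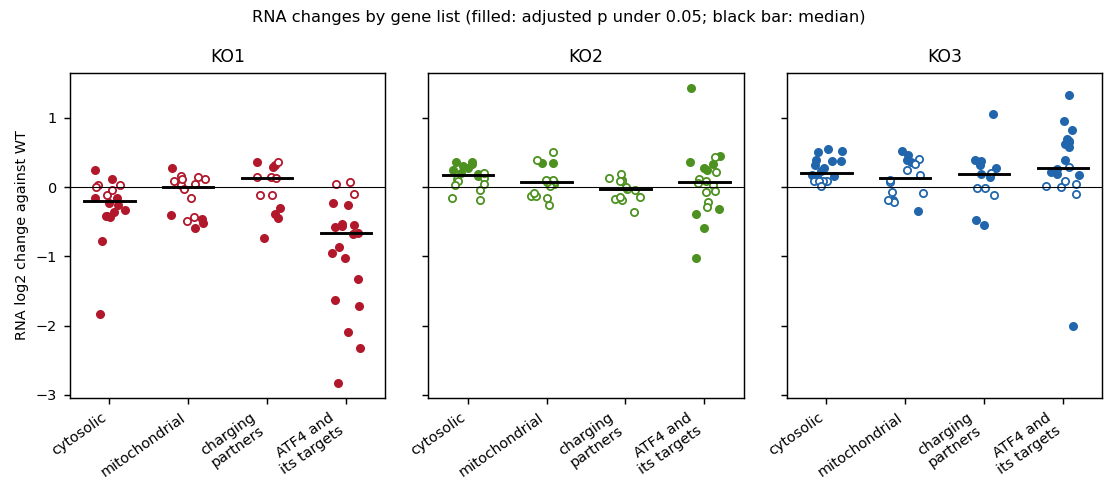
RNA log2 change against WT cells (y axis) of each gene of 4 lists in KO1, KO2 and KO3, with filled points for an adjusted p under 0.05 and a black bar at the median of the list. In KO1 the ATF4 list has a median of -0.67 and the cytosolic synthetases of -0.20, and in KO3 both medians lie above 0.

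The list of 13 charging partners holds the scaffolds of the multi-synthetase complex, Vars, the amidotransferase subunits that make mitochondrial glutaminyl-tRNA, editing and selenocysteine enzymes and the tRNA exporter Xpot. For RNA, 3 of 13 rose and 4 fell in KO1, beside 22.1% and 24.6% of all genes. In KO2, 0 of 13 were called, where 11.6% of all genes were called higher and 8.84% lower. There 5 had an unadjusted p under 0.05 in edgeR, as had 3662 of the 11476 genes tested. In KO3, 7 rose and 2 fell, beside 23.1% and 22.3% of all genes. Vars, the synthetase of the EEF1B complex, was at 449 and 444 CPM in WT cells and at 576 and 545 CPM in KO1, with 483 and 494 CPM in KO2 and 498 and 490 CPM in KO3. It was thus higher in the clone in which most cytosolic synthetases were lower, with a change of 0.33 (SE 0.046, edgeR adjusted p = 3.26e-08), and also in KO3 (0.14, edgeR adjusted p = 0.011), while 0.13 in KO2 did not pass the test (edgeR adjusted p = 0.0669). The scaffold genes Aimp1, Aimp2 and Eef1e1 were called in KO3 alone, with changes of 0.19, 0.28 and 0.40. In KO1 their changes were 0.15, 0.15 and -0.11.

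Ribosome footprints gave fewer calls. In KO1, 8 of 18 cytosolic synthetases had fewer footprints and 0 had more, and of the mitochondrial enzymes Iars2 had more and Yars2 fewer, where 15.2% of 10335 genes were called lower and 11.7% higher. Iars2 was at 128 and 140 CPM in KO1 (log2 change 0.29, SE 0.0962, edgeR adjusted p = 0.0185), a call lost in 4 of 12 settings. In KO2, 6 cytosolic members and Iars2 had more footprints and 0 members fewer, where 6.74% of 10370 genes were called higher and 4.96% lower. In KO3, 8 cytosolic members and Cars2 had more footprints, and Mars2 and Rars2 had fewer, where 14.9% of 10398 genes were called higher and 15.7% lower. The cytosolic genes had median footprint changes of -0.12, 0.13 and 0.10 in the 3 clones in order, and those of the mitochondrial genes were -0.07, -0.01 and 0.11.

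The footprints of Cars were at 316 and 302 CPM in WT cells and at 91.3 and 115 CPM in KO1, against 337 and 311 CPM in KO2 and 318 and 335 CPM in KO3. The change in KO1 was -1.68 (SE 0.0903, edgeR adjusted p = 5.36e-21). Those of Wars were at 117 and 100 CPM in WT cells, at 65.1 and 64.1 CPM in KO1 and at 179 and 153 CPM in KO3, with 96.9 and 111 CPM in KO2. They were lower in KO1 (-0.77, SE 0.108, edgeR adjusted p = 1.47e-07) and higher in KO3 (0.59, SE 0.0895, edgeR adjusted p = 9.23e-07). Lars (leucyl, 199 and 190 CPM in WT cells) had fewer footprints in KO1, 149 and 132, and more in KO3, 281 and 267, with changes of -0.45 and 0.48 (edgeR adjusted p = 6.18e-05 and 8.36e-07). Qars went from 121 and 113 to 80.7 and 72.7 CPM in KO1 (-0.59, SE 0.102, edgeR adjusted p = 9.63e-06).

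In KO2 the largest footprint rises were those of Iars2 (103 and 110 CPM in WT cells, 137 and 136 in KO2, log2 change 0.36, edgeR adjusted p = 0.00472), Aars (248 and 237 CPM in WT cells, 307 and 290 in KO2, 0.30, edgeR adjusted p = 0.00418) and Eprs (390 and 408 CPM in WT cells, 496 and 476 in KO2, 0.29, edgeR adjusted p = 0.00263). The KO2 count of 7 fell to 2 without WT replicate 2, to 3 without WT replicate 1 and without KO2 replicate 1, to 1 after thinning of the libraries to equal totals and to 0 by DESeq2. In KO3, Cars2 went from 10.4 and 7.03 to 17.5 and 16.3 CPM (0.90, SE 0.234, edgeR adjusted p = 0.00254) and Mars2 from 41.4 and 34.8 to 26.1 and 23.8 CPM (-0.63, SE 0.149, edgeR adjusted p = 0.000889). Rars2 was at 28.3 and 28.5 CPM in WT cells and at 22.2 and 15.7 in KO3 (-0.57, SE 0.174, edgeR adjusted p = 0.0101), a call lost without KO3 replicate 2, by DESeq2 and after thinning. The call of Cars2 was lost by DESeq2 and after thinning, with changes of 0.70 to 1.26 over the settings, and that of Mars2 by DESeq2 and without WT replicate 1, with changes of -1.02 to -0.48.

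Over the clones, the footprint changes were called unequal for 24 of 34 synthetases, 15 cytosolic and 9 mitochondrial, where 59.5% of 10763 genes were. Averaged over the clones, the footprint change was called for 1 member, Cars (-0.51), where 9.25% were called. Lars, Nars, Sars, Wars and Yars had opposite footprint calls in KO1 and in another clone, in each case with the signs of their RNA calls. Lars, Nars and Wars kept both footprint calls under all 12 settings. The KO1 and KO2 calls of Sars were each lost in 4 settings and the KO1 call of Yars in 3. Opposite footprint calls were found for 9.23% of the 10111 genes tested in every clone. For footprints 0 members were called in all 3 clones, where 3.09% of genes were.

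TE was called for 0 of 34 synthetases in each clone, in the mean of the clones and in the test of equal changes, where edgeR called 0.0942% of genes in KO1, 0.0173% in KO2, 0.104% in KO3, 0% for the mean and 1.03% for unequal changes. DESeq2's likelihood ratio test also called 0 members in each clone. An unadjusted p under 0.05 in edgeR was found for 0 members in KO1, 1 in KO2, 3 in KO3, 0 for the mean and 5 for unequal changes. Genome-wide, KO1 had 827 such genes among 11680 tested. KO2 had 495 among 11570, and KO3 had 702 among 11566. With 11903 genes tested, the mean gave 451 and the test of equal changes 1223. For the cytosolic members the median TE changes of KO1, KO2 and KO3 were -0.00035, -0.052 and -0.0564, with a median SE of 0.0914, 0.0919 and 0.087, and for the mitochondrial members 0.0558, -0.00025 and -0.13, with a median SE of 0.258, 0.246 and 0.228. The precision was lower for the mitochondrial genes, which had fewer counts.

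Members with the smallest unadjusted p for TE are given by their values. In KO1 they were Gars (0.15, SE 0.0805), Lars2 (0.41, SE 0.233) and Wars2 (0.51, SE 0.308), and in KO2 Nars2 (-0.77, SE 0.3), Aars2 (-0.47, SE 0.261) and Rars (-0.12, SE 0.0848). The edgeR adjusted p-values were between 0.744 and 0.77 in KO1 and at 1.00 in KO2. In KO3 they were Kars (-0.20, SE 0.0801), Vars2 (-0.54, SE 0.224) and Eprs (-0.16, SE 0.0777), with edgeR adjusted p-values of 0.683, 0.705 and 0.813. Nars2 TE was at 0.69 and 0.84 in WT cells and at 0.00027 and -0.0088 in KO2, below the other 6 libraries, which lay between 0.58 and 1.05. TE of Cars, whose RNA and footprints both fell in KO1, was 0.15 and 0.14 in WT cells and 0.28 and 0.50 in KO1, a change of 0.16 (SE 0.112, edgeR adjusted p = 0.798).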

How the data were processed

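The authors deposited raw counts per transcript, together with the codon length of each counted coding sequence. Per the labels and the study's methods, reads were trimmed with fastp 0.21.0 and aligned to mm10 with STAR 2.7.0a using GENCODE vM23, and counted at the A-site on coding sequences without the first and last 5 codons. All 16 columns were mapped to samples, and 0 were left unmapped. In R 4.3.3, edgeR 4.0.16 quasi-likelihood tests used TMM within each assay, filterByExpr and Benjamini-Hochberg adjusted p under 0.05, with 1 transcript per gene. Each clone was fitted with WT cells; the mean and the equality of the clones were fitted over all lines; the TE change was the interaction of line and assay. The fits were tested on simulated data. Alternatives, DESeq2 1.42.0 among them, are described below. Values in CPM use TMM sizes, and levels between genes are per 1000 codons.

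Members, lists and the rule for named genes were chosen with earlier results of these data known. All 34 members were counted. Library values were given for members called in all clones, the 3 largest called rises and falls per clone and readout, and the highest and lowest WT levels and TE. For the 3 smallest TE p-values per clone, the change and its SE were given. Other members named, the chromosome medians and the neighbours of Cars were chosen after their values were seen. Chromosomes and promoters came from RefSeq (GRCm38.p6). After removal of group means, same-numbered libraries correlated at 0.0177 to 0.168 in RNA-seq (2 of 6 pairs over 0.1) and 0.0291 to 0.0836 in Ribo-seq. The RNA-seq and Ribo-seq of a replicate shared a lysate per the labels, with r of 0.0648 to 0.12. 1 further promoter window that the search found is not reported here.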

Additional observations from a re-analysis of the deposited data

Results flagged for a closer look

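RNA changes of 27 synthetases and footprint changes of 24 synthetases differed between the 3 clones by edgeR's test of equal changes, which called 74.0% and 59.5% of all genes, and the members below were called in opposite directions in a pair of clones as well. Each value is the highest minus the lowest log2 change over KO1, KO2 and KO3.

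For RNA the largest of these gaps was that of Wars, 1.33, followed by Nars with 0.93, Yars with 0.88 and Lars with 0.78. The gap was 0.61 for Tars, 0.52 for Aars, 0.47 for Iars, 0.46 for Sars and 0.39 for Gars. In these 9 cytosolic genes KO1 was the lowest clone. Among the mitochondrial genes it was 0.80 for Lars2 and 0.76 for Ears2, with KO1 lowest, and 0.54 for Iars2, with KO3 lowest.

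For footprints the gap was 1.36 for Wars, 1.05 for Yars, 0.96 for Nars, 0.92 for Lars and 0.47 for Sars, with KO1 lowest in each. Of the genes flagged for RNA or footprints, Lars, Nars and Wars lie on chromosomes whose median RNA change in KO3 was 0.32 or 0.33. Lars2 lies on chromosome 9, with a median of -0.36 in KO1, and Ears2 on chromosome 7, with -0.44. Aars lies on chromosome 8, with medians of 0.26 in KO2 and 0.22 in KO3, and Iars2 on chromosome 1, with 0.28 in KO2. The part of the chromosomes in the gaps was not tested.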

How the results depend on the processing

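Of the 75 RNA and footprint calls of single members, 35 held under all 12 alternative settings of their comparison, and 0 changed sign. DESeq2 lost 32 of 75, and thinning of all libraries to the smallest total of their assay lost 17. DESeq2 called 5, 0 and 5 members for footprints in KO1, KO2 and KO3 (10, 7 and 11 in the values reported). After thinning 1 was called in KO2 and 7 in KO3, the median footprint change was -0.13 (mitochondrial, KO2) and 0.152 (cytosolic, KO3), and the mitochondrial TE medians were 0.11, -0.135 and -0.0488. The cause of these losses was not tested. Less the chromosome median, chosen after seeing the data, the cytosolic RNA median was -0.16 in KO1 and 0.0707 in KO2.

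A fit with the replicate number as a block lost 0 of 75 calls and called 20, 14 and 20 members for RNA, 10, 10 and 12 for footprints and 0 for TE. It moved the mitochondrial TE median of KO1 to 0.029, and a block on the shared lysate moved it to 0.00562. TE calls over all genes in KO1 went from 11 to 56 with the replicate block and to 83 with the lysate block, with 0 members called. Same-numbered libraries share a number and not a stated origin.

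With 1 library left out at a time, RNA calls ranged from 12 (without WT replicate 1) to 16 in KO1, from 6 (without WT replicate 2) to 13 in KO2, from 11 (without WT replicate 2) to 19 in KO3, from 3 to 8 for the mean and from 25 to 28 for unequal changes. Footprint calls ranged from 5 (without KO1 replicate 1) to 10, from 2 (without WT replicate 2) to 7 and from 8 to 10, stayed at 1 for the mean, and ranged from 17 to 24 for unequal changes. TE calls stayed at 0. The ranges of the cytosolic medians in KO1, KO2 and KO3 were -0.238 to -0.162, 0.136 to 0.184 and 0.186 to 0.242 for RNA, -0.137 to -0.101, 0.0676 to 0.176 and 0.0923 to 0.123 for footprints, and -0.031 to 0.0386, -0.0887 to -0.0387 and -0.0755 to -0.0307 for TE. Those of the mitochondrial medians were -0.0911 to -0.0245, -0.041 to 0.153 and 0.0883 to 0.231 for RNA, -0.115 to -0.00024, -0.125 to 0.0545 and -0.0277 to 0.0784 for footprints, and -0.0859 to 0.114, -0.112 to 0.0151 and -0.119 to -0.0526 for TE. Where this left a line with 1 library, it was assumed to vary like the others. The mitochondrial members are limited by depth, with a median of 55 counts in WT Ribo-seq.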

Other observations

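Around several members the nearest genes moved with the synthetase. Of the 8 nearest tested genes of Sars2, Ears2, Qars and Yars2, the median RNA change in KO1 was -0.41, -0.49, -0.35 and -0.51, and 7, 7, 6 and 6 of them were called lower, beside changes of -0.59, -0.40, -0.42 and -0.51 of the members. Around Nars2 the median was -0.83 in KO1. Around Sars, which fell by 0.26, the median was 0.25 and 0 of 8 neighbours were called lower, and around Wars, Yars and Gars it was -0.02, 0.09 and 0.02 in KO1. In KO3 the neighbours of Gars had a median of -0.58, while Gars itself changed by 0.09. The KO3 medians around Dars, Iars, Tars and Yars were 0.31, 0.31, 0.18 and 0.39. Of 8 neighbours each, 4, 5, 5 and 5 were called higher and 3, 0, 1 and 2 lower. Around Eprs, Ears2, Pars2 and Vars2, which also rose in KO3, the medians were -0.19, -0.07, -0.13 and -0.03.

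The summed RNA of the 18 cytosolic synthetases was 4626 and 4521 CPM in WT cells. It was 3876 and 3982 CPM for KO1, 5254 and 5128 CPM for KO2 and 5364 and 5326 CPM for KO3. That of the mitochondrial enzymes was 488 and 476 CPM for WT cells, 471 and 462 for KO1, 521 and 526 for KO2, and 501 and 499 for KO3. In WT cells the cytosolic genes took 0.466% and 0.456% of the RNA-seq counts of these transcripts, and the mitochondrial genes 0.0492% and 0.048%.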
